A study of Mus musculus with 6 samples.

Results

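Collagen genes were taken as all rows of the deposited table whose symbol reads Col, a number, a and a number, with 1 or more counts in at least 3 of the 6 libraries. Of 44 such rows among 34945 rows in the table, 40 met this rule. They comprised 10 fibrillar, 6 basement membrane, 5 beaded-filament and 8 FACIT collagens and 11 others, FACIT standing for fibril-associated collagens with interrupted helices. Col10a1 and Col19a1 had 0 counts in all 6 libraries, while Col24a1 and Col6a4 had 1 count in a single library each.

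Collagens are secreted proteins in which alpha chains wind around each other into a helix built from short repeats of glycine, proline and hydroxyproline. Fibrillar collagens of types I and III carry the tensile load of the heart wall and are made mainly by fibroblasts, with type V setting fibril diameter from within. Type IV forms the sheet-like network of the basement membranes around muscle cells and capillaries, and type VI forms beaded filaments between that sheet and the fibrils. Nascent chains are hydroxylated and folded in the endoplasmic reticulum before secretion, then trimmed and cross-linked outside the cell.

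Left ventricular myocardium was sampled from 3 wild-type mice and 3 mice with the 4SA-Rad knock-in allele, all labelled as strain C57BL/6N. Rad is a small GTP-binding protein that restrains cardiac calcium channels, and in the knock-in form phosphorylation-site serines are replaced by alanine. The comparison asks which transcripts of the ventricle differ with that allele. Age, sex and any treatment are not given in the labels, and the knock-in is not stated to be limited to a cell type.

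The libraries held between 24761124 and 39627397 estimated counts, each knock-in library being deeper than each wild-type library, and 53.1% to 56.9% of counts came from the mitochondrial genome. Markers of ventricular muscle such as Myh6 and Myl2 were present in all libraries, with a summed level of 10 such genes of 42854 to 45229 counts-per-million (CPM, scaled by the trimmed mean of M-values, TMM) in wild-type and 44622 to 45751 CPM in knock-in. Nnt, encoding a mitochondrial transhydrogenase whose gene is known to be defective in the C57BL/6J substrain, was at 262 to 282 CPM in the wild-type mice and 596 to 730 CPM in the knock-in mice (edgeR adjusted p = 2.02e-05). Nnt follows the same split of the mice as the Rad allele, so that a substrain difference and the allele cannot be told apart in any result on genotype. In bulk tissue, fewer cells of a type and less RNA per cell also cannot be told apart.

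Few collagen transcripts passed the test of genotype. Of the 40 genes, 33 passed the filter on low counts and were tested, 1 of these fell (Col5a1), none rose and 32 did not pass an adjusted p of 0.05 in edgeR's quasi-likelihood test. That is 3.03% of the tested collagen genes, against 9.01% called among all 13485 genes tested (5.01% called as lower). At an unadjusted p below 0.05 there were 8 collagen genes, 24.2% against 25.2% of all genes. The CPM ranges of the genotypes did not overlap for 9 of the 33, or 27.3% against 29.4% of all genes, and both shares lay near the background. The median log2 fold change was -0.08 (knock-in minus wild-type) against 0.00356 over all genes, with 20 values below 0 and 13 above (60.6% below 0, against 49.3% of all genes). Other scalings of the libraries gave collagen medians of -0.16 to -0.06. By size without regard to sign the median was 0.149, against 0.132 over all genes. DESeq2 called 0 of the 33 and limma-voom 1, at 6 and 8 unadjusted p-values below 0.05. In DESeq2, 1 of the 33 had no adjusted p and so could not be called.

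**Figure D1:**
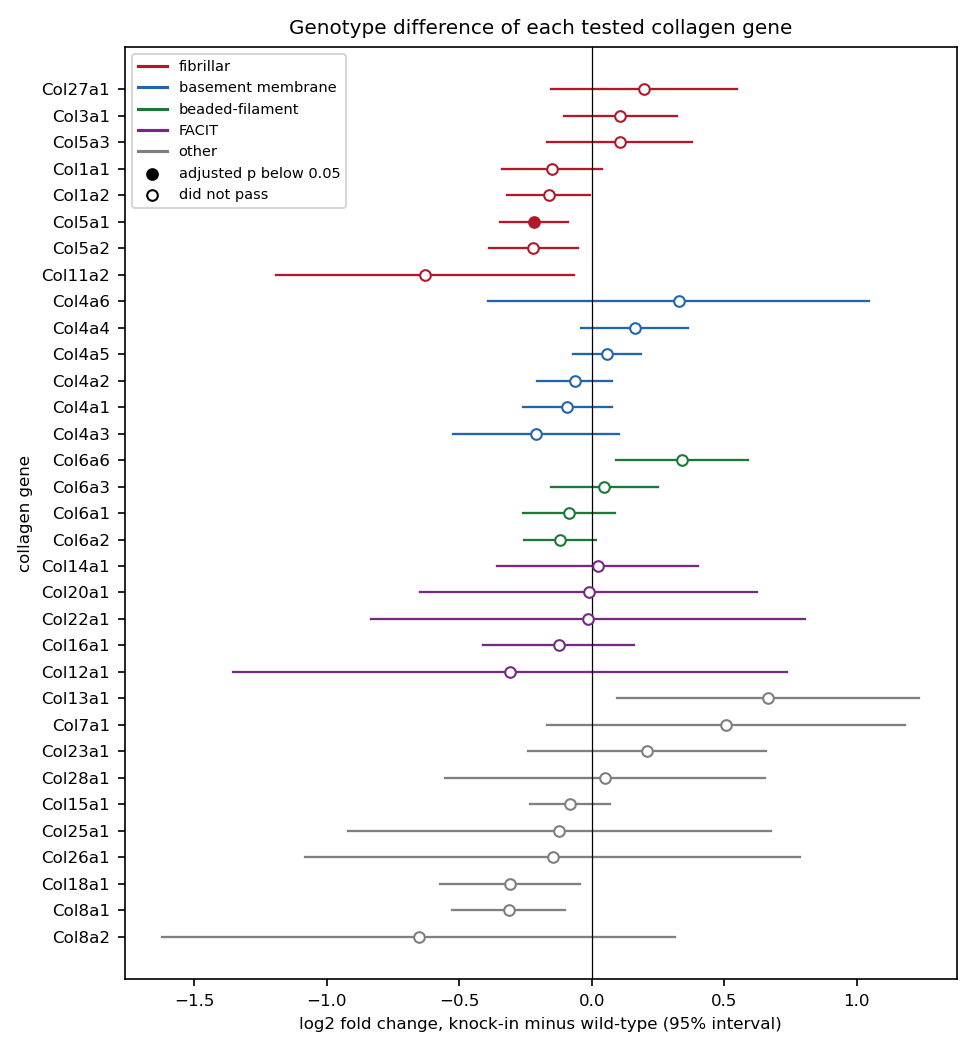
Log2 fold change (knock-in minus wild-type, horizontal axis) of the 33 tested collagen genes with its 95% interval, coloured by class; filled points passed an adjusted p of 0.05. Only Col5a1, at -0.22, is filled, and most intervals cross 0.

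Fibrillar collagens held the single call. Of 8 tested members 1 fell and 7 did not pass, and the class median log2 fold change was -0.16. edgeR, DESeq2 and limma-voom each gave 4 unadjusted p-values below 0.05. CPM ranges did not overlap for 3 of the 8, all lower in knock-in. Over all genes tested by edgeR, 9.01% were called, 5.01% called as lower, and 25.2% had an unadjusted p below 0.05. Ranges did not overlap for 29.4% of all genes, or for 15.1% with knock-in lower. Whether the class differs from these shares was not tested. Col5a1 encodes the alpha-1 chain of type V collagen, which nucleates type I fibrils, and lies on chr2:27886425-28039514 on the plus strand of GRCm38. It stood at 27.0, 26.01 and 25.6 CPM in the wild-type mice (replicates 1 to 3, the order used throughout) and at 21.6, 23.1 and 22.9 CPM in the knock-in mice. Between 692 and 924 counts per library lay behind these values. All 3 knock-in values lay below all 3 wild-type values. The log2 fold change was -0.22 ± 0.06 (SE), or 0.860-fold (edgeR adjusted p = 0.0431). The call rested on all 6 mice, since leaving out any single library gave adjusted p-values of 0.0761 to 0.117, at log2 fold changes of -0.24 to -0.19. Upper-quartile scaling (0.0655) and DESeq2 (0.0816) also gave an adjusted p above the threshold.

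Col5a2 encodes the partner chain of most type V collagen. Its level was 14.96, 17.6 and 15.6 CPM in the wild-type and 14.5, 13.5 and 13.4 CPM in the knock-in mice. The ranges did not overlap, and the log2 fold change of -0.22 ± 0.08 had the same size as that of Col5a1 but did not pass (edgeR adjusted p = 0.0994). The third type V chain, Col5a3, did not pass, at a log2 fold change of 0.11 ± 0.12 (edgeR adjusted p = 0.652), and its ranges overlapped.

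The abundant chains of types I and III did not pass. Col3a1, the sole chain of type III collagen, was at 76.2, 83.1 and 68.0 CPM in the wild-type mice and 75.6, 94.7 and 74.5 CPM in the knock-in mice. Its log2 fold change was 0.11, with a 95% interval from -0.11 to 0.32 (edgeR adjusted p = 0.543), and knock-in replicate 2 was the highest of the 6 mice. Col1a2, the alpha-2 chain of type I collagen, was at 53.5, 59.1 and 50.7 CPM in the wild-type mice and 48.9, 44.8 and 52.2 CPM in the knock-in mice, with ranges that overlapped. The log2 fold change of -0.16 ± 0.07 had an unadjusted p below 0.05 but did not pass (edgeR adjusted p = 0.183). Col1a1, the alpha-1 chain, was at 29.3, 34.6 and 26.8 CPM against 27.8, 27.3 and 26.8 CPM. Its 95% interval on the log2 scale ran from -0.34 to 0.04, and wild-type replicate 2 stood highest.

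Col11a2, a type XI chain best known from cartilage, was at 1.60, 2.03 and 2.15 CPM in the wild-type mice and 1.58, 0.807 and 1.36 CPM in the knock-in mice. The ranges did not overlap by a narrow margin, and the log2 fold change of -0.63 ± 0.25 did not pass (edgeR adjusted p = 0.152). Col27a1, a fibrillar collagen of cartilage and other connective tissue, was at a mean of 3.62 ± 0.812 CPM in the wild-type mice and 4.19 ± 0.225 CPM in the knock-in mice (SD, n = 3 each). The cartilage chains Col2a1 and Col11a1 were not tested, with 0 or 1 count and 0 to 4 counts per library.

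The sequences before the annotated starts of Col5a1, of Col8a1 (the tested collagen with the next smallest p) and of the most abundant fibrillar gene Col3a1 are shown to set the promoter of the called gene beside others. Each window holds the 250 bases before the RefSeq start on GRCm38.p6, written 5′ to 3′ on the strand of the gene, at chr2:27886175-27886424, chr16:57754738-57754987 (minus strand) and chr1:45311288-45311537. Capitals mark GC boxes (GGGCGG or its reverse CCGCCC, the core of Sp1-type sites) and TATA boxes (TATAAA or its reverse TTTATA), and CCAAT or its reverse ATTGG was also searched.
Col5a1: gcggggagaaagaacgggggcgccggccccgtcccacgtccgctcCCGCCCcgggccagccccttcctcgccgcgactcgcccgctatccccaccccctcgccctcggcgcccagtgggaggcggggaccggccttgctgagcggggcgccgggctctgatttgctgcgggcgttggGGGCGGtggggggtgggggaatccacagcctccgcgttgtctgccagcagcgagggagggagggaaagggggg
Col8a1: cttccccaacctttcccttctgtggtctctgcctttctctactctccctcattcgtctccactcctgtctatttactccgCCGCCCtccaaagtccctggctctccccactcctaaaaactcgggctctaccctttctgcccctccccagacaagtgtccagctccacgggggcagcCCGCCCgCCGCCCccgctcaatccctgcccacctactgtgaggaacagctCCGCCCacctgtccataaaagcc
Col3a1: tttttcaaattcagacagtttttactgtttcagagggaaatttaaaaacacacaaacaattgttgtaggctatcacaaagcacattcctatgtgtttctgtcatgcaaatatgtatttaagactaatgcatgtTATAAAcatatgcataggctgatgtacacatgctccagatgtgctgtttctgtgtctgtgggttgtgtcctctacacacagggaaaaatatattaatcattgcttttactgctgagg
The Col5a1 window was 76.4% G and C and held 2 GC boxes, and the Col8a1 window was 60.8% G and C and held 4. The Col3a1 window was 35.2% G and C and held none. It had 1 match to the TATA box letters, whose first base lay at -117 from the start. A CCAAT box was in none of the 3. RefSeq windows were found for 31 of the 40 collagen genes, with 34 starts. A GC box was in 21 of these 34 windows (61.8%) against 32.7% of all 32851 windows, a CCAAT box in 35.3% against 33.8%, and a TATA box in 11.8% against 12.4%. These matches describe letters in a window and do not mark binding sites.

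**Figure D2:**
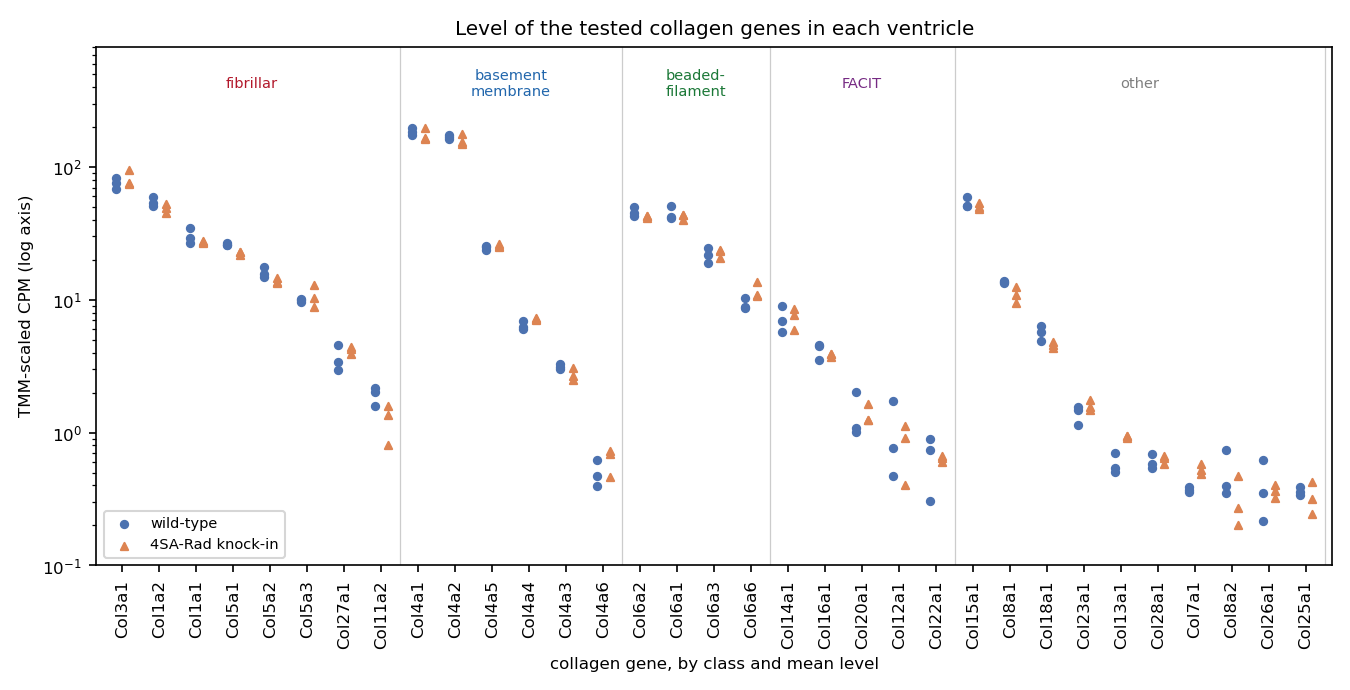
TMM-scaled CPM (vertical log axis) of the 33 tested collagen genes in each of the 6 libraries, ordered by class and mean level; circles are wild-type and triangles 4SA-Rad knock-in. Col4a1 and Col4a2 stand highest, between 149 and 198 CPM, and most pairs of groups overlap.

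Basement membrane collagens were the most abundant class and none of the 6 tested genes passed in edgeR, DESeq2 or limma-voom, with 0 unadjusted p-values below 0.05 in each. The shares over all genes in edgeR were 9.01% called and 25.2% at an unadjusted p below 0.05. The class median log2 fold change was -0.00343. Col4a1, which with Col4a2 forms the type IV network of most tissues, was at 184, 174 and 198 CPM in the wild-type mice and 165, 196 and 161 CPM in the knock-in mice. Col4a2 was at 169, 162 and 173 CPM and at 155, 177 and 149 CPM. In both genes knock-in replicate 2 stood apart from the other knock-in mice, near or above the top of the wild-type range. The 95% interval of the log2 fold change was -0.26 to 0.08 for Col4a1 and -0.20 to 0.08 for Col4a2.

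Col4a5, a chain of the type IV networks of kidney, lung and smooth muscle, was at 23.6, 25.3 and 24.9 CPM in the wild-type mice and 25.03, 26.5 and 25.4 CPM in the knock-in mice, an overlap with a 95% interval from -0.07 to 0.19. Its partners Col4a3 and Col4a4 were at 3.16 ± 0.136 and 6.39 ± 0.512 CPM in the wild-type mice and 2.74 ± 0.296 and 7.17 ± 0.121 CPM in the knock-in mice. The ranges of Col4a4 did not overlap, with knock-in higher, and neither gene passed (edgeR adjusted p = 0.398 and 0.306). Col4a6 had only 12 to 28 counts per library.

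Type IV genes lie as head-to-head pairs that are read in opposite directions from neighbouring starts. In GENCODE M21 on GRCm38, Col4a1 and Col4a2 overlap by 22 bases at their starts on chromosome 8, Col4a3 and Col4a4 are 71 bases apart on chromosome 1, and Col4a5 and Col4a6 are 1308 bases apart on the X chromosome. The 71 bases between the Col4a4 and Col4a3 starts, at chr1:82586850-82586920 and written on the strand of Col4a4, are shown because both genes start from their ends. No motif of those above was found, so no letter is in capitals.
Col4a4-Col4a3 gap: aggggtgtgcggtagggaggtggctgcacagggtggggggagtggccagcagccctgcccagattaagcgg
Levels within these pairs were close in some and far apart in others. Per kilobase of exon, the level of Col4a2 was 0.904 to 0.974 times that of Col4a1 over the 6 libraries, while that of Col4a5 was 35.0 to 63.5 times that of Col4a6. The level of Col4a4 per kilobase was 1.67, 1.78 and 1.68 times that of Col4a3 in wild-type and 2.02, 2.44 and 2.23 times in knock-in replicates. These ratios did not overlap between genotypes, a comparison made after the values were seen and not tested. Whether strand was used in counting is not given, so reads in the overlap of Col4a1 and Col4a2 are uncertain.

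Beaded-filament collagens of type VI gave no call among 4 tested genes in edgeR, DESeq2 or limma-voom, with 1 unadjusted p below 0.05 in each. Among all genes tested by edgeR, 9.01% were called and 25.2% had an unadjusted p below 0.05, so the class count lay near the background. The class median log2 fold change was -0.02. Col6a1, the alpha-1 chain, was at 42.1, 50.9 and 41.5 CPM in the wild-type mice and 40.002, 43.4 and 43.3 CPM in the knock-in mice. Col6a2 was at 42.5, 49.7 and 45.1 CPM against 41.2, 42.4 and 42.8 CPM, and Col6a3, the long alpha-3 chain, at 19.1, 24.4 and 21.9 CPM against 23.7, 23.4 and 20.7 CPM. Wild-type replicate 2 was the highest library for all 3 chains, and none passed.

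Col6a6, a chain related to alpha-3, had the only unadjusted p below 0.05 in the class. It stood at 8.73, 10.3 and 8.82 CPM in the wild-type mice and 10.7, 10.9 and 13.7 CPM in the knock-in mice, with no overlap. The log2 fold change was 0.34 ± 0.11 and did not pass (edgeR adjusted p = 0.0887). It passed only with no filter on low counts (edgeR adjusted p = 0.0382) among the 16 other settings. Col6a5 had 0 to 7 counts per library and was not tested.

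FACIT collagens, which sit on the surface of fibrils, were low and variable, and none of 5 tested genes passed in edgeR, DESeq2 or limma-voom, with 0 unadjusted p-values below 0.05 in each. The shares over all genes in edgeR were 9.01% called and 25.2% at an unadjusted p below 0.05. The class median was -0.01. Col14a1, a fibroblast product, was at 6.97, 9.03 and 5.71 CPM in the wild-type mice and 8.49, 5.91 and 7.71 CPM in the knock-in mice, with a 95% interval from -0.36 to 0.40. Col16a1 was at 3.55, 4.53 and 4.48 CPM against 3.94, 3.72 and 3.92 CPM, and Col20a1 at 1.09, 2.03 and 1.01 CPM against 1.24, 1.24 and 1.64 CPM. The groups overlapped for all 3. Col12a1 ranged from 0.403 to 1.73 CPM and Col22a1 from 0.307 to 0.894 CPM on 12 to 58 counts per library for the former. The 95% interval of Col12a1 ran from -1.35 to 0.74 on the log2 scale, and its wild-type counts of 12, 58 and 25 lay far apart. The type IX chains Col9a1, Col9a2 and Col9a3, partners of cartilage fibrils, had 0 to 7 counts per library and were not tested.

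The other collagens gave no call among 10 tested genes in edgeR, DESeq2 or limma-voom, with 3, 1 and 3 unadjusted p-values below 0.05. Among all genes tested by edgeR, 9.01% were called and 25.2% had an unadjusted p below 0.05, so the class count lay near the background. The class median log2 fold change was -0.10. Col15a1, a multiplexin of the muscle and capillary basement membrane zone, was at 50.8, 58.9 and 50.7 CPM in the wild-type mice and 48.0, 53.3 and 50.4 CPM in the knock-in mice. These overlapped, with a 95% interval from -0.23 to 0.07. Its relative Col18a1, the source of the fragment endostatin, was at 4.87, 6.32 and 5.68 CPM against 4.55, 4.35 and 4.78 CPM. The ranges did not overlap but lay close, and the log2 fold change of -0.31 ± 0.12 did not pass (edgeR adjusted p = 0.139).

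Col8a1, a short-chain collagen of vessel walls, had the next smallest p after Col5a1. It was at 13.9, 13.6 and 13.3 CPM in the wild-type mice and 9.42, 10.9 and 12.5 CPM in the knock-in mice. All knock-in values were lower, with a spread wider than in wild-type, and the log2 fold change of -0.31 ± 0.10 did not pass (edgeR adjusted p = 0.0710). It did pass without knock-in replicate 3 (-0.42, edgeR adjusted p = 0.0458) and with no filter on low counts (0.0350). Col13a1, a transmembrane collagen, was at 0.545, 0.507 and 0.707 CPM in the wild-type mice and 0.909, 0.951 and 0.942 CPM in the knock-in mice. All knock-in values were higher, from 14 to 38 counts per library, and the log2 fold change of 0.67 ± 0.26 did not pass (edgeR adjusted p = 0.137).

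The remaining tested collagens of this class were Col7a1, Col8a2, Col23a1, Col25a1, Col26a1 and Col28a1, with wild-type means from 0.362 to 1.39 CPM. Col7a1, the anchoring fibril collagen of skin, had ranges that did not overlap (0.358 to 0.390 CPM in wild-type, 0.490 to 0.576 CPM in knock-in) on 10 to 21 counts per library. Its interval on the log2 scale ran from -0.17 to 1.18. Col17a1, of epithelial hemidesmosomes, had 0 to 4 counts per library and was not tested.

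The class make-up of the collagen transcripts overlapped between genotypes. Members of the family took 0.0830%, 0.0893% and 0.0808% of all counts in wild-type and 0.0708%, 0.0804% and 0.0774% in knock-in, and 0.177%, 0.194% and 0.183% against 0.164%, 0.186% and 0.167% of counts outside the mitochondrial genome. On the first scale every knock-in library lay below every wild-type library, and on the second the ranges overlapped. Per kilobase of exon, basement membrane collagens made up 41.0% to 47.1% of collagen CPM in wild-type and 42.6% to 46.0% in knock-in. Fibrillar collagens made up 25.9% to 28.9% and 27.7% to 28.1%, and beaded-filament collagens 15.5% to 17.5% and 15.6% to 17.2%. FACIT collagens made up 1.49% to 2.08% and 1.42% to 1.97%, and the other collagens 9.69% to 10.5% and 9.36% to 10.2%. Wild-type replicate 2 was the highest of the 6 libraries for 18 of the 33 tested genes. Without that mouse edgeR called 0 collagen genes (5 at an unadjusted p below 0.05). It also called 0 without wild-type replicate 1 or 3, or without knock-in replicate 1 or 2, so this loss was not particular to wild-type replicate 2.

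**Figure D3:**
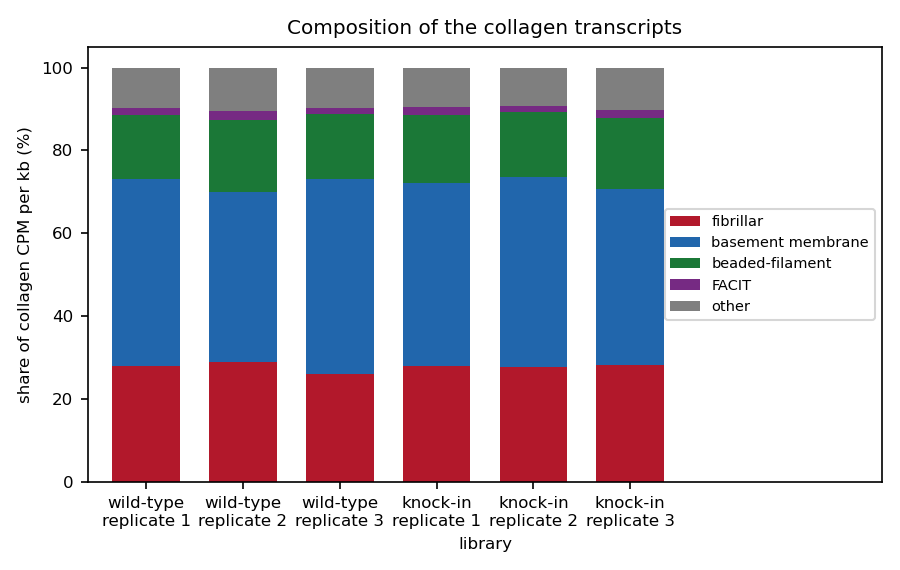
Share of the summed collagen CPM per kilobase of exon (vertical axis, %) held by each collagen class in each of the 6 libraries (bars). Basement membrane collagens take 41.0% to 47.1% of every bar, and the ranges of all 5 classes overlap between genotypes.

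By level per kilobase the leading genes were Col4a1 (27.9 CPM per kilobase in wild-type, 26.1 in knock-in), Col4a2 (26.03 and 24.9), Col3a1 (13.6 and 14.7) and Col6a1 (10.9 and 10.3). Next came Col1a2 (9.85 and 8.80), Col15a1 (8.85 and 8.37), Col6a2 (7.62 and 7.01) and Col1a1 (5.10 and 4.602). The lengths are unions of annotated exons, so a level per kilobase depends on which isoform is used.

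The proportions of 4 of 5 pairs of chains overlapped between genotypes. The count of Col1a1 was 0.547, 0.586 and 0.528 times that of Col1a2 in wild-type and 0.568, 0.610 and 0.513 times in knock-in. The ratio of Col4a1 to Col4a2 was 1.103 ± 0.0331 in wild-type and 1.08 ± 0.0231 in knock-in (SD, n = 3 each), that of Col6a1 to Col6a2 0.978 ± 0.0528 and 1.00 ± 0.0273, and that of Col5a1 to Col5a2 1.64 ± 0.161 and 1.63 ± 0.126. Each of these had an exact permutation p of at least 0.5. The ratio of Col1a1 to Col3a1 did not overlap, at 0.384, 0.417 and 0.394 in wild-type and 0.367, 0.289 and 0.359 in knock-in. The mean difference on the log2 scale was -0.24 (exact permutation test over mice, two-sided p = 0.1, adjusted p = 0.5 over 5 ratios), and 0.1 is the smallest p that 3 against 3 mice can give. Without knock-in replicate 2 the difference was -0.13.

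**Figure D4:**
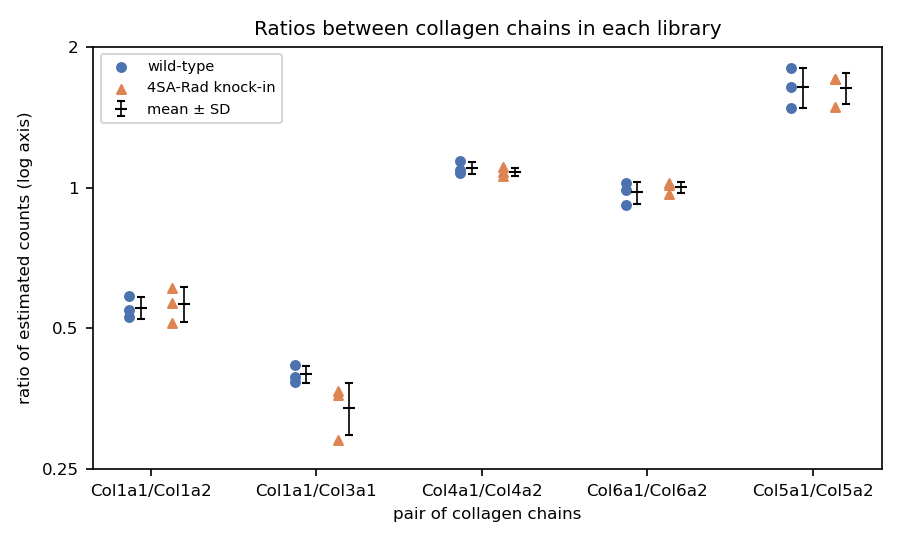
Ratio of estimated counts between pairs of collagen chains (vertical log axis) in each library, circles for wild-type and triangles for 4SA-Rad knock-in, with mean ± SD. For Col1a1/Col3a1 the knock-in mice (0.289 to 0.367) lie below the wild-type mice (0.384 to 0.417), and the other ratios overlap.

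Calls were found among the genes that modify, fold, bind and break down collagen. Of 87 tested genes in 6 lists of collagen partners 16 fell, 2 rose and 69 did not pass, or 20.7% called against 9.01% of all genes, and the median log2 fold change was -0.05 against 0.00356. In the list of collagen synthesis and folding in the endoplasmic reticulum, 6 of 22 tested genes fell, 1 rose and 15 did not pass, 31.8% called, with a median of -0.03. The lists were chosen with earlier results of these data known, so their shares cannot be read as an excess over all genes. Whether these shares differ from that of the collagen genes was not tested. Leaving out wild-type replicate 2, wild-type replicate 3, knock-in replicate 2 or knock-in replicate 3 reduced the 18 calls to 11, 7, 8 and 3. In the same fits the calls among all genes tested went from 1215 to 746, 485, 672 and 338. Without knock-in replicate 3 the calls were 3 of 88 partner genes and 338 of all 13627 genes tested. The 7 calls of the synthesis list were reduced to 2, 3 and 1 by leaving out wild-type replicate 3, knock-in replicate 2 and knock-in replicate 3.

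P4ha1 encodes a catalytic subunit of prolyl 4-hydroxylase, which makes the hydroxyproline that stabilises the helix. It was at 36.9, 37.7 and 42.5 CPM in the wild-type mice and 27.0, 19.1 and 19.3 CPM in the knock-in mice, without overlap and with knock-in replicate 1 highest of the knock-in mice. It fell by 0.84 ± 0.12 on the log2 scale (edgeR adjusted p = 0.00341) and was called in all 16 other settings, the 6 that left out a library included. P4ha2, the second catalytic subunit, fell from 36.9 ± 1.55 to 27.7 ± 4.13 CPM (edgeR adjusted p = 0.0225; past the threshold in 2 of 6 leave-one-out fits).

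All 3 lysyl hydroxylase genes, whose enzymes prepare collagen for glycosylation and cross-linking, were called as lower. Plod1 fell from 50.6 ± 2.71 to 40.6 ± 1.2997 CPM, Plod2 from 22.5 ± 3.08 to 17.8 ± 1.104 CPM and Plod3 from 15.98 ± 0.586 to 13.4 ± 0.635 CPM (edgeR adjusted p = 0.00777, 0.0492 and 0.0371). Plod1 was past the threshold in 5 of 6 leave-one-out fits, and Plod2 and Plod3 in 1 each. Serpinh1, the collagen chaperone HSP47, was at 111, 118 and 115 CPM in the wild-type mice and 101, 72.4 and 76.3 CPM in the knock-in mice (-0.46 ± 0.10, edgeR adjusted p = 0.0225), with knock-in replicate 1 nearest to wild-type as for P4ha1. It was called in 2 of 6 such fits. Fkbp10, another collagen chaperone, rose from 10.8, 11.7 and 8.85 CPM to 13.8, 14.1 and 14.7 CPM (0.45 ± 0.10; edgeR adjusted p = 0.0204). This call held in 4 of 6 such fits.

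**Figure D5:**
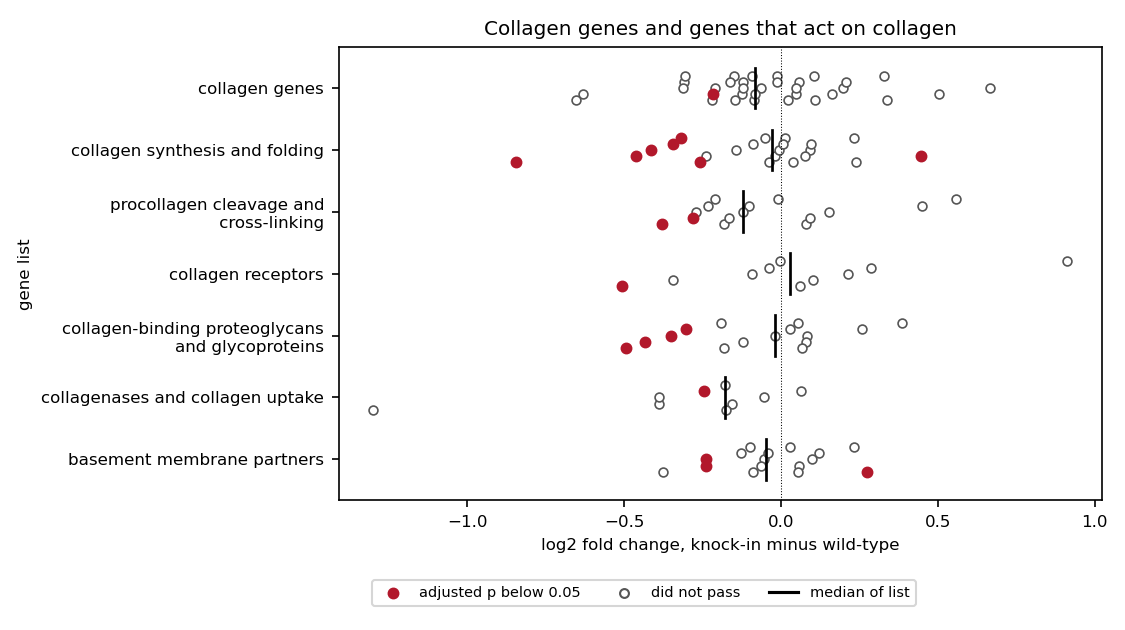
Log2 fold change (knock-in minus wild-type, horizontal axis) of the tested collagen genes and of 6 lists of genes that act on or bind collagen; each point is a gene, red points passed an adjusted p of 0.05 and black bars are list medians. The collagen genes hold 1 red point of 33 and the synthesis and folding list 7 of 22.

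Outside the cell, 2 of 15 tested genes of cleavage and cross-linking fell and 13 did not pass (list median -0.12). Over all genes tested 9.01% were called and 5.01% called as lower, so that the counts of this list, the receptors and the breakdown genes are near the background. Adamts2, which removes the amino-terminal propeptide of fibrillar procollagens, fell from 10.5 ± 0.169 to 8.63 ± 0.383 CPM (edgeR adjusted p = 0.0410), past the threshold in 1 of 6 leave-one-out fits. Tgm2, a cross-linking transglutaminase, fell from 165 ± 8.86 to 127 ± 13.7 CPM (edgeR adjusted p = 0.0125; 4 of 6 such fits). Of 10 tested collagen receptors, Adgrg1, a receptor for type III collagen, fell from 32.5 ± 2.20 to 22.9 ± 2.02 CPM (edgeR adjusted p = 0.00417; called in all 16 other settings) and 9 did not pass (median 0.03).

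Of 15 tested collagen-binding proteins 4 fell and 11 did not pass (median -0.02), beside 9.01% called and 5.01% called as lower over all genes. The proteoglycan gene Bgn was at 139, 168 and 139 CPM in the wild-type mice and 127, 111 and 113 CPM in the knock-in mice, and Sparc, a collagen-binding glycoprotein, at 164, 167 and 182 CPM against 135, 144 and 137 CPM. Neither overlapped, and both fell (edgeR adjusted p = 0.0248 and 0.00757). Aspn, an inhibitor of fibril formation, fell by 0.43 and the matricellular protein gene Postn, also listed as an activated fibroblast marker, by 0.49 on the log2 scale (edgeR adjusted p = 0.0207 and 0.0260). Leave-one-out fits called Sparc in 5 of 6, Bgn in 3 of 6, and Aspn and Postn in 2 of 6 each. Called counts for this list were 0 without knock-in replicate 3 and 1 without knock-in replicate 2. Of 9 tested genes of collagen breakdown, the lysosomal protease Ctsl fell by 0.25 on the log2 scale (edgeR adjusted p = 0.0254; past the threshold in 1 of 6 leave-one-out fits) and 8 did not pass (median -0.18).

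Among 16 tested partners of type IV collagen in the basement membrane, 2 fell, 1 rose and 13 did not pass (median -0.05). The shares over all genes tested were 9.01% called and 5.01% called as lower. The nidogens link type IV collagen to laminin. Nid1 was at 99.4, 103 and 101 CPM in the wild-type mice and 88.1, 85.7 and 83.2 CPM in the knock-in mice (-0.24 ± 0.04, edgeR adjusted p = 0.00909), while Nid2 fell from 14.1 ± 0.502 to 11.96 ± 0.270 CPM (0.0463; past the threshold in none of 6 leave-one-out fits). Agrn, a heparan sulphate proteoglycan, rose from 41.6 ± 2.33 to 50.3 ± 0.376 CPM (edgeR adjusted p = 0.0122). Without knock-in replicate 3 none of these 3 was called.

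Marker lists covered the cells that make collagen and other cells of the ventricle, and were chosen with earlier results of these data known. Their calls are read against 9.01% of all genes called and 5.01% called as lower. Ranges did not overlap for 29.4% of single genes, and no such share was computed for sums over a list. Of 14 tested fibroblast markers 2 fell (Mfap5 and Pi16) and 12 did not pass, and their summed level overlapped, at 993 to 1214 CPM in the wild-type mice and 948 to 1099 CPM in the knock-in mice. Gsn alone held 514 to 644 and 467 to 572 CPM of these sums, so they say little of the less abundant markers. Of 9 tested markers of activated fibroblasts 4 fell (Ccn2, Cilp, Meox1 and Postn), with sums of 113 to 139 and 84.0 to 119 CPM. Of 14 endothelial markers 6 fell (Cldn5, Eng, Esam, Flt1, Robo4 and Tie1) and 1 rose (Erg), and the sums of 725 to 735 and 655 to 717 CPM did not overlap. Of 12 mural cell markers Abcc9 rose and Mylk fell, with sums of 885 to 930 and 905 to 945 CPM. Most of these sums came from Rgs5 (365 to 400 and 348 to 352 CPM) and Abcc9 (308 to 332 and 357 to 382 CPM). Of 11 macrophage markers 7 fell (Adgre1, C1qa, C1qb, C1qc, Csf1r, Lyz2 and Mertk), and the sums of 183 to 187 and 133 to 154 CPM did not overlap. Wt1 fell among 6 tested epicardial markers, with sums of 9.94 to 18.03 and 6.30 to 10.5 CPM. None of 8 Schwann cell or 3 valve and cartilage markers was called by edgeR, Tbx5 rose among 7 atrial markers and Fabp3 among 10 ventricular muscle markers. Atrial sums were uneven, at 110, 161 and 78.3 CPM in the wild-type mice and 160, 105 and 120 CPM in the knock-in mice. The atrial gene Myl7 ranged from 1.17 to 28.1 CPM over the 6 libraries. Valve and cartilage sums were 3.23, 7.66 and 4.82 CPM against 6.36, 3.77 and 5.92 CPM. In both lists wild-type replicate 2 had the highest sum. Schwann cell sums were 10.3 to 14.7 and 13.9 to 16.1 CPM. No listed marker was at 0 in all libraries, and the part of these markers in the values of the collagen genes and their partners was not tested.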

How the data were processed

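Ventricular RNA from 6 mice was sequenced from TruSeq stranded libraries, per the labels' protocols. The authors deposited raw estimated counts per gene symbol, made with kallisto 0.44.0 on GRCm38, per the submitters' processing notes. All values were whole numbers, and no rounding changed them. For the annotation, the summing to symbols and the use of strand, the sources used here give nothing.

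Each column was matched to its mouse by sample number and code. Within a genotype, libraries differed beyond sampling noise (chi-square per degree of freedom at least 8.40). Whether each mouse came from its own litter or batch is not given. The edgeR p-values therefore set the genotype difference against the spread among these 6 libraries, with information on spread shared across genes.

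Counts were fitted with edgeR 4.0.16 (R 4.3.3): filterByExpr (13485 genes kept), TMM scaling and a two-sided quasi-likelihood F test with Benjamini-Hochberg adjustment over all tested genes, called below 0.05. SE is the fold change over the root of F. Values are TMM-scaled CPM. Ratios of 2 chains were compared by exact permutation over mice. Exon lengths came from GENCODE M21 and promoter windows from RefSeq on GRCm38.p6. Alternatives used DESeq2 1.42.0, limma-voom (limma 3.58.1), other scalings and filters, robust dispersions and leaving out each library. The pipeline was tested on simulated data.

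Collagen classes, partner lists and markers were chosen with earlier results of these data known. Genes are named by this rule: every collagen row; values per mouse for collagen genes that were called or had an unadjusted p below 0.05 and for the 3 most abundant tested members of each class; every called gene of the 6 partner lists; and the called genes of the marker lists. The genes with a collagen-like helix, those of the comparison of Col4a3 with Col4a4 and those of the promoter windows were chosen after their values were seen.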

Additional observations from a re-analysis of the deposited data

How the results depend on the processing

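No paired analysis was possible because the labels give the genotypes no shared replicate numbers. The count of called collagen genes was 1 with DESeq2 size factors, TMM without mitochondrial transcripts, limma-voom, robust dispersions and filters of 50 or 1 counts in 3 libraries. It was 0 with upper-quartile factors (7 at an unadjusted p below 0.05) and with DESeq2 (6), 2 with library size alone (Col5a1 and Col5a2) and 3 with no filter (Col5a1, Col6a6 and Col8a1). Leaving out each library gave 0 to 1 collagen genes, 3 to 17 collagen partner genes, 1 to 6 synthesis and folding genes and 338 to 1378 of all genes. The single collagen call without knock-in replicate 3 was Col8a1, and Col5a1 was not called then. Library size alone shifted the median of all genes by -0.08 and gave 227 higher and 1177 lower genes, 16.2% higher among calls against 540 and 675 with TMM, where collagen values below 0 numbered 24 against 20. The cause of these changes was not tested, beyond the fewer mice in each fit that left out a library.

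None of the 18 called partner genes and no collagen gene with an unadjusted p below 0.05 changed sign; the 69 other partner genes were not followed across settings. Collagen fold changes kept their sign in all but 27 comparisons with other settings, in genes that did not pass. Library size alone gave -0.025 for Col4a5, -0.037 for Col6a3, -0.064 for Col14a1 and -0.032 for Col28a1. Upper-quartile factors gave 0.00707 for Col20a1 and 0.00421 for Col22a1, and limma-voom 0.042 and 0.12. Over the fits that left out a library, log2 fold changes ran from -0.015 to 0.18 for Col3a1, -0.055 to 0.22 for Col5a3, -0.14 to 0.016 for Col6a1 and -0.038 to 0.14 for Col6a3. They ran from -0.62 to 0.37 for Col12a1, -0.13 to 0.22 for Col14a1, -0.20 to 0.39 for Col20a1 and -0.37 to 0.33 for Col22a1, and from -0.36 to 0.044 for Col25a1, -0.46 to 0.38 for Col26a1 and -0.014 to 0.15 for Col28a1.

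The share of counts that are collagen differed by -0.15 on the log2 scale (-0.10 outside the mitochondrial genome, -0.19 to -0.10 leaving out a library). The log2 difference in ratio ran from -0.036 to 0.090 for Col1a1/Col1a2, -0.0063 to 0.071 for Col6a1/Col6a2 and -0.077 to 0.066 for Col5a1/Col5a2 when a library was left out. The 95% intervals of Col12a1, Col20a1, Col22a1, Col25a1 and Col26a1 hold a 1.5-fold difference in either direction.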

Other observations

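Several proteins outside the collagen family carry a collagen-like helix, among them the complement protein C1q, ficolins, collectins and adiponectin. Of 39 such genes, listed with values of these data known, 23 were tested, 4 fell, none rose and 19 did not pass, where 9.01% of all genes tested were called and 5.01% called as lower. The median log2 fold change was 0.07. The genes that fell were the 3 chains of C1q and Fcna. C1qa was at 18.6, 21.4 and 20.1 CPM in the wild-type mice and 17.3, 15.6 and 13.9 CPM in the knock-in mice (edgeR adjusted p = 0.0278). C1qb was at 18.2, 19.3 and 18.4 CPM against 15.2, 12.5 and 12.1 CPM (0.00889), and C1qc at 15.2, 17.8 and 14.9 CPM against 11.7, 10.6 and 11.8 CPM (0.00790). Fcna, encoding ficolin A, a lectin made by macrophages, was at 0.896, 1.31 and 1.20 CPM against 0.303, 0.461 and 0.645 CPM (0.0344). None of the 4 overlapped between genotypes. C1q is a product of macrophages, of whose 11 markers (the C1q chains included) 7 fell, and the part of macrophage number in these values was not tested.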
